A study of Mus musculus with 6 samples.

Results

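The regions described here are 1 kb tiles of the mouse autosomes that held few CpGs yet were unmethylated in control male germ cells. A CpG is a cytosine followed by a guanine, and it was counted once, with the calls of both strands added. A tile belonged to the set if the deposited CpG table listed 3 to 9 CpGs in it, if each of the 6 samples had 10 or more methylation calls there, and if the pooled level of the 4 controls was under 20%. The level is the percentage of calls read as C. The rule found 5877 tiles, which were 2.55% of the 230712 autosomal tiles with 3 to 9 CpGs that had enough calls, and 1.78% of all 330110 tiles with 3 or more CpGs that did. The control levels chose these tiles, so the controls' low values in them are a description, and no difference between the knockout and the controls over the set as a whole was tested.

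DNA came from germ cells sorted by Oct4-GFP fluorescence from testes of single mouse pups of mixed strain background at postnatal day 2.5, born to matings of 2 Tex15+/- parents, and was read by whole-genome bisulfite sequencing. Bisulfite turns unmethylated cytosine into a base read as T, while methylated cytosine is still read as C. The groups were Tex15WT (Tex15+/+, pups 8 and 9), Tex15HT (Tex15+/-, pups 7 and 18) and Tex15KO (Tex15-/-, pups 3 and 16), so n = 2 pups for each genotype, and Tex15WT and Tex15HT together are called the controls. All pups were male and carried the GFP reporter that the sort relied on, and no expression values were used here to check the purity of the sorted cells.

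Most CpGs of a mammalian genome are methylated, and methylated cytosines are lost over evolution by mutation to thymine, which leaves most of the genome poor in CpGs. Stretches that stay unmethylated in the germ line keep their CpGs and form CpG islands, which often hold promoters, so a tile that is unmethylated and has few CpGs is uncommon. Methylation is erased in primordial germ cells and set again in prospermatogonia, the fetal precursors of spermatogonia, where TEX15, a nuclear protein, is needed for piRNA-guided methylation of young retrotransposons.

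Promoters whose start lies in a tile of the set show part of its sequence. No mm9 genome was used, so the promoters of RefSeq (build GRCm38.p6, 250 bases before to 50 bases after each gene's start) were placed in the mm9 table by the spacing of their CpGs alone, which placed 9734 of the 19582 promoters searched. The same search on the wrong chromosome placed 7. Of the placed promoters, 43 of 41 genes had their start in 41 of the tiles. The 6 that follow were picked after their values were seen, to span the range from few to many CpGs. Each runs 5′ to 3′ along the gene's strand and can reach out of the tile into the next one, and capitals mark the CG pairs that the table lists.

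Mrpl20 (chr4:155802628-155802927, GRCm38.p6, plus strand): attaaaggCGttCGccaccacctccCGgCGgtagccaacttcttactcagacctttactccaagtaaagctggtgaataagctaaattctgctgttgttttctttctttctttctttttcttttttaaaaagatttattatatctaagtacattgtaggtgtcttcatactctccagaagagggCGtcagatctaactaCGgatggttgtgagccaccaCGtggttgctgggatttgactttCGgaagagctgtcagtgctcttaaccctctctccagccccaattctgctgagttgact
Rsl1 (chr13:67172932-67173231, GRCm38.p6, plus strand): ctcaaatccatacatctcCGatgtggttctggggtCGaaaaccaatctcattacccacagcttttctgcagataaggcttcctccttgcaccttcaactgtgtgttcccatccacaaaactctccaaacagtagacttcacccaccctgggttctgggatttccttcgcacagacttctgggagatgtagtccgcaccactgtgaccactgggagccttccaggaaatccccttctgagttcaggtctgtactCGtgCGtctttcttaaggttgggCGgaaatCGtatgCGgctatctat
M1ap (chr6:82946672-82946971, GRCm38.p6, plus strand): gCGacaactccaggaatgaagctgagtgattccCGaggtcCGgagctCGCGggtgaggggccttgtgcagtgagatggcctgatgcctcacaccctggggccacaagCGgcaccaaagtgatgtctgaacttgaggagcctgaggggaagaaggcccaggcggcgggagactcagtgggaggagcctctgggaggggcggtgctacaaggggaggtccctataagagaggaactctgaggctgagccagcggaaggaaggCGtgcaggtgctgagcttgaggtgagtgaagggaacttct
Mfn2 (chr4:147904860-147905159, GRCm38.p6, minus strand): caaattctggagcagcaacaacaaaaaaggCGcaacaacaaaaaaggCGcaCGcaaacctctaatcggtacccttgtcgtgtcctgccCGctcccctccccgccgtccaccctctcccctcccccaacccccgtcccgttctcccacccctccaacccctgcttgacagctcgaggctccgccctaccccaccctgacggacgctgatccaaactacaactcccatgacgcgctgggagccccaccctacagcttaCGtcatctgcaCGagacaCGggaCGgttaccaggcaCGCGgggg
Acadsb (chr7:131410351-131410650, GRCm38.p6, plus strand): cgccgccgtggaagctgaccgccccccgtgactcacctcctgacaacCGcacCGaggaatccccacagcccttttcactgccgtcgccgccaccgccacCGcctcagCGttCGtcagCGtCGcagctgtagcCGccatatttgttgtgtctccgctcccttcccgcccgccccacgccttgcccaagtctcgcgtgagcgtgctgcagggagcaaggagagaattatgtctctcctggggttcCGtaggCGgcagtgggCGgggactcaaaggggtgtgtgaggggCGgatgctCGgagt
Zswim7 (chr11:62281346-62281645, GRCm38.p6, minus strand): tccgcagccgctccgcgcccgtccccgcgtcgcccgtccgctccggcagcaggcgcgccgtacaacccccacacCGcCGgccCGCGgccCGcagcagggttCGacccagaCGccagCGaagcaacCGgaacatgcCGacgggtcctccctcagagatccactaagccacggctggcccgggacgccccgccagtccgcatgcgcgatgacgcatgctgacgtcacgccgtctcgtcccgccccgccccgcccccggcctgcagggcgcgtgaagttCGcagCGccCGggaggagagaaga

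The sequence did not always match the name CpG-poor. The 43 promoters held a median of 15 CG pairs in 300 bases, with a range of 6 to 46, while the table listed a median of 8 of them. In 13 of the promoters the sequence held 20 or more CG pairs, and in 10 it held under 10. Of the 43, 18 lay wholly in the tile and 25 reached out of it. The stretches inside the tiles, with a median of 281 bases, held a median of 10 CG pairs, of which a median of 6 were listed. In 22 promoters the stretch inside the tile alone held more than 9 CG pairs, so that these tiles would not count as CpG-poor by this sequence. The Zswim7 promoter had 21 CG pairs inside the tile, of which 3 were listed, and the Mrpl20 promoter had 8 there and all 8 were listed. In these tiles, which are 41 of the 5877, the rule's limit of 9 CpGs therefore counts listed CpGs and not always those of the sequence, and for the other tiles the sequence was not read. Unlisted CG pairs were also common elsewhere. Promoters placed in unmethylated tiles of 10 or more listed CpGs held a median of 24 CG pairs with 14 listed (a median of 63.6% per promoter, against 61.5% for the 43). The 33 promoters placed in tiles of 3 to 9 CpGs that were at 80% or more in controls held a median of 7 with 6 listed.

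The 6 tiles with these promoters were low in the knockout as well as in the controls, but they were picked after their values were seen. Their values therefore do not stand for all 41 tiles that held a placed start. Of those 41, 36 were under 20% for Tex15KO 3 and 37 for Tex15KO 16. All 6 samples were under 20% in 28 of them. Acadsb, which encodes an enzyme of branched-chain amino acid breakdown, lay in the tile chr7:138554001-138555000 (coordinates of tiles are in mm9), where the level was 0% in all 6 samples. Each of these samples had 19 to 23 calls, so that a count of 0 allows a level of up to 13.0% to 15.8%. Mfn2, which encodes the mitochondrial fusion protein mitofusin 2, lay in chr4:147279001-147280000, at 0% in the 4 controls and in Tex15KO 3 and at 5.0% for Tex15KO 16 (95% Wilson interval 1.38% to 16.5%). Mrpl20, which encodes a protein of the mitochondrial ribosome, lay in chr4:155176001-155177000, at 0% in every sample except Tex15HT 7, which was at 3.33%. Zswim7, whose product acts in homologous recombination in meiosis, lay in chr11:62094001-62095000, at 0% for both Tex15WT and both Tex15KO samples, at 7.41% for Tex15HT 7 and at 4.17% for Tex15HT 18. Rsl1, a KRAB zinc finger gene, lay in chr13:67274001-67275000, at 0% in 3 controls, 2.04% for Tex15HT 18, 1.89% for Tex15KO 3 and 1.96% for Tex15KO 16. M1ap, which is needed for meiosis in the male, lay in chr6:82896001-82897000, at 0% and 14.3% for Tex15WT, 5.56% for both Tex15HT, 2.86% for Tex15KO 3 and 4.35% for Tex15KO 16. In none of the 6 tiles did both knockout pups lie above or below all 4 controls. Intervals and limits cover counting error only, and CpGs on the same read are not independent.

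The library of Tex15KO 3 stood apart before any level was compared. The totals ran from 27495658 calls in Tex15KO 3 to 52935635 in Tex15KO 16, but 74.4% of the listed cytosines had no call in Tex15KO 3, against 1.71% to 10.2% in the other 5, and its covered cytosines had a median of 8 calls against 2 to 4. In these tiles, 44.5% of the CpGs had a call in Tex15KO 3 and 93.0% to 98% in the others, or a median of 3 CpGs per tile against 7. Its mitochondrial CpGs read as C in 1.82% of calls, against 0.656% to 0.826% in the other samples. Tile by tile, the values of Tex15KO 3 therefore rest on fewer CpGs, and 65.5% of the tiles were at exactly 0% or 100% in it.

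Over all calls in the 5877 tiles, the level was 9.71% for Tex15WT 8, 12.8% for Tex15WT 9, 7.89% for Tex15HT 7, 10.1% for Tex15HT 18, 12.3% for Tex15KO 3 and 11.9% for Tex15KO 16. Tex15WT 9 was the highest, both Tex15KO samples lay just under it, and the other 3 controls lay below them. The means were 11.3% ± 2.22 (SD, n = 2) for Tex15WT, 8.99% ± 1.55 for Tex15HT and 12.1% ± 0.302 for Tex15KO. The knockout thus lay 1.96 percentage points above the controls' 10.1% ± 2.04 (SD, n = 4), which is less than their SD. The median tile was at 7.69% and 11.1% for Tex15WT, 5.88% and 8.70% for Tex15HT, 0% for Tex15KO 3 and 10.3% for Tex15KO 16. Tiles under 20% made up 83.9%, 73.8%, 88.8% and 84.5% of the set in Tex15WT 8, Tex15WT 9, Tex15HT 7 and Tex15HT 18, 77.7% for Tex15KO 3 and 78.1% for Tex15KO 16. All 6 samples were under 20% in 2250 tiles (38.3%), and both Tex15KO samples were in 3720 (63.3%). Tiles over 50% were few in every sample but 1: 2 to 27 in the controls, 24 in Tex15KO 16 and 574 in Tex15KO 3. Of the 574, 364 (63.4%) were under 20% for Tex15KO 16, and of the 24 over 50% for Tex15KO 16, 10 were over 50% for Tex15KO 3.

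**Figure D1:**
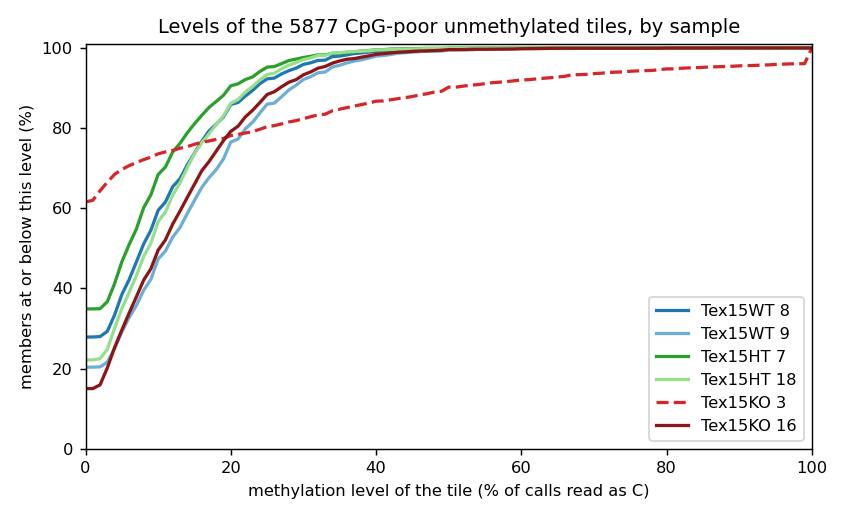
Share of the 5877 tiles (vertical axis, %) at or below each methylation level (horizontal axis, % of calls read as C), with 1 line per sample. The line of Tex15KO 3 (dashed) starts at 61.6% of tiles at 0% and climbs slowly, while that of Tex15KO 16 starts at 15% and runs close to the 4 controls, which start at 20.4% to 34.9%.

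In the controls, most listed CpGs of the tiles were low. This is partly fixed by the rule, since the same control calls chose the tiles. The tiles held 43069 listed CpGs, of which 37725 had 8 or more calls in the 4 controls together. Of these, 45.9% had no methylated call in the controls, 81.5% were under 20%, 15.1% were at 20% to under 50%, and 3.48% were at 50% or more. By tile, 1339 of the 5877 were under 5% in the pooled controls, 1443 were at 5% to under 10% and 3095 at 10% to under 20%. The median was 10.4%, and 259 tiles had no methylated control call. A further 3047 tiles with 3 to 9 CpGs lay at 20% to under 30%, so the threshold cuts through a continuous range. Just under it, chr4:145714001-145715000 was at 18.6% and 29.0% for Tex15WT, 16.6% and 16.4% for Tex15HT, and 14.2% and 18.8% for Tex15KO. Just over it, chr1:191766001-191767000 was at 15.4%, 12.5%, 9.52% and 34.1% in the controls, 9.09% for Tex15KO 3 and 37.0% for Tex15KO 16. Tiles with more CpGs were more common in the set: 51.5% had 8 or 9 CpGs, against 29.4% of all tiles with 3 to 9 CpGs that had enough calls.

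Choosing the tiles on 3 controls and reading the control left out puts that control on the same footing as the knockout. With Tex15WT 8 left out, 5867 tiles were chosen, in which Tex15WT 8 was at 11.6%, Tex15KO 3 at 12.3% and Tex15KO 16 at 12.1%. With Tex15WT 9 left out, 6262 tiles were chosen, and Tex15WT 9 was at 15.7%, above Tex15KO 3 at 13.2% and Tex15KO 16 at 12.6%. With Tex15HT 7 left out, the 5607 tiles chosen were at 9.24% for Tex15HT 7, 12.1% for Tex15KO 3 and 11.8% for Tex15KO 16. With Tex15HT 18 left out, the 5946 tiles were at 12.0% for Tex15HT 18, 13.0% for Tex15KO 3 and 12.4% for Tex15KO 16. Both Tex15KO samples lay above the left-out control for Tex15WT 8, Tex15HT 7 and Tex15HT 18, and below it for Tex15WT 9. They lay inside the left-out controls' range of 9.24% to 15.7% only through Tex15WT 9, and that range spans differing sets of tiles. Tiles at 20% or more made up 16.4% to 34.7% in the left-out control and 22.1% to 24.0% for Tex15KO 16. Tiles at 50% or more made up 0.696% to 3.11% in the left-out control, 0.696% to 0.862% for Tex15KO 16 and 10.6% to 11.9% for Tex15KO 3. Tex15KO 3 had about as many tiles at 20% or more as Tex15KO 16 (22.1% to 23.6%) but more of them were over 50%, and the part of its thin coverage of CpGs in this was not tested.

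**Figure D2:**
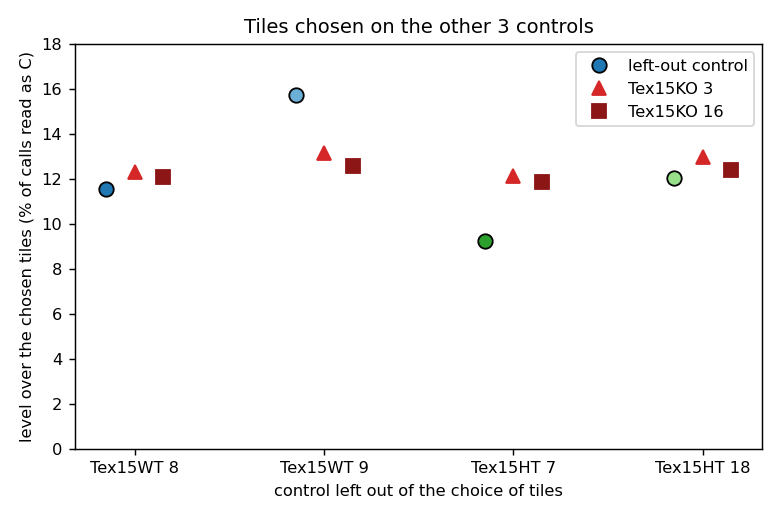
Level over the tiles chosen on the other 3 controls (vertical axis, % of calls read as C) for each control left out (horizontal axis). The left-out control (circles) ran from 9.24% to 15.7%, and Tex15KO 3 (triangles, 12.1% to 13.2%) and Tex15KO 16 (squares, 11.8% to 12.6%) lay between these values. Both were below the left-out control only for Tex15WT 9.

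By position, the tiles fell into edges of unmethylated CpG-rich stretches and low tiles standing alone. Of the 5877, 2562 (43.6%) adjoined an unmethylated tile of 10 or more CpGs (under 20%, with 20 or more control calls), 136 of them on both sides. The same held for 1.43% of the 193775 tiles with 3 to 9 CpGs at 80% or more in controls, and for 63.5% of the 31372 CpG-rich tiles under 20%. Another 428 tiles (7.28%) had such a CpG-rich tile within 5 kb but not next to them. A further 681 (11.6%) adjoined only another low tile with few CpGs, and 2206 (37.5%) were isolated, with none of these. Most tiles were single: 5566 had no other tile of the set beside them, 151 pairs adjoined, and 3 runs held 3 tiles. A neighbour too thinly covered in any sample, Tex15KO 3 included, could not join the set. The count of single tiles therefore depends on coverage and does not measure how far low stretches stand apart. A CpG-rich neighbour with too few control calls was likewise counted as absent, so the class isolated depends on coverage too. The size of these effects was not tested.

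Isolated tiles were less deeply unmethylated than edge tiles in every sample. The median control level was 12.2% in isolated tiles and 8.56% in those adjoining a CpG-rich tile. In the isolated tiles the level was 10.9% and 15.3% for Tex15WT, 8.61% and 11.1% for Tex15HT, 14.2% for Tex15KO 3 and 13.7% for Tex15KO 16. In the adjoining tiles it was 8.68% and 10.4% for Tex15WT, 7.43% and 9.14% for Tex15HT, 10.3% for Tex15KO 3 and 10.1% for Tex15KO 16. Within each sample the isolated tiles were higher, by an amount largest in Tex15WT 9. The class isolated was set from neighbours' levels pooled over all controls, so a left-out control still had a part in it. With isolated tiles chosen on 3 controls, the mean tile level of the left-out control was 14.3% for Tex15WT 8, 19.8% for Tex15WT 9, 10.7% for Tex15HT 7 and 14.6% for Tex15HT 18. In the same tiles Tex15KO 3 was at 14.6% to 16.5% and Tex15KO 16 at 14.2% to 15.1%. Again both were below the left-out control only for Tex15WT 9 and above it in the other choices.

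The isolated tiles were narrow dips in methylated surroundings. The mean tile level, over tiles that the sample covered with at least 10 calls, was 59.1% to 64.1% in the 6 samples 1 kb away on either side and 82.1% to 88.5% at 2 kb. The listed CpGs of an isolated tile spanned a median of 596 bases, and those of a tile adjoining a CpG-rich one 645. This span lies within the 1 kb tile and does not measure how wide the low stretch is. Both Tex15KO samples showed the dip with the controls. At the tile itself they were at 15.4% and 14.1%, below Tex15WT 9 at 15.6% and above the other controls at 8.67% to 11.4%. These tiles were classed in part by having no unmethylated CpG-rich tile within 5 kb and no low tile next to them. The higher level around them is therefore partly fixed by the class.

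**Figure D3:**
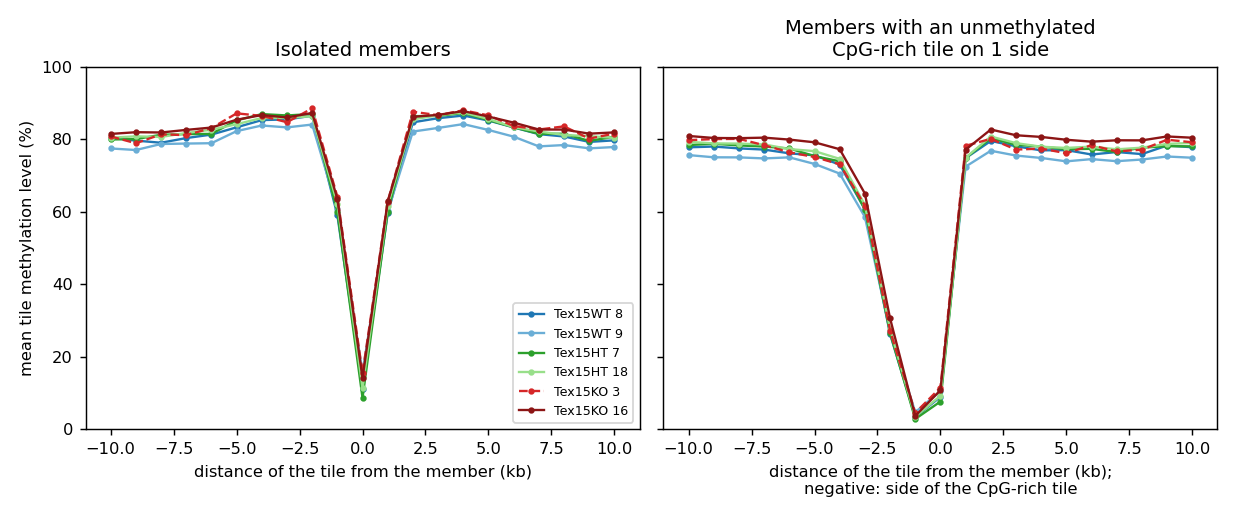
Mean tile methylation level (vertical axis, %) against distance from the tile (horizontal axis, kb), with 1 line per sample, for the 2206 isolated tiles (left) and the 2426 tiles with an unmethylated CpG-rich tile on 1 side (right, CpG-rich side at negative distances). All 6 samples follow the same dip on the left, and on the right a low stretch that ends within 1 kb beyond the tile, where the level is 72.4% to 78.2%. Both shapes are partly fixed in the controls by how the tiles were classed.

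Tiles with a CpG-rich neighbour on 1 side held the edge of the unmethylated stretch. The low level of the tile and of that neighbour in the controls, and in part the higher far side, are fixed by the class. In these 2426 tiles the CpG-rich neighbour was at 2.84% to 4.72%, the tile itself at 7.65% to 11.5%, and the next tile on the far side at 72.4% to 78.2%, as means over tiles in the 6 samples. Split by distance from the shared edge, the mean level of the 7811 CpGs in the first 250 bases was 3.08% and 4.84% for Tex15WT, 2.20% and 3.25% for Tex15HT, and 4.36% and 4.13% for Tex15KO. In the last 250 bases, which held 2083 CpGs, it was 28.5% and 29.0% for Tex15WT, 27.3% and 29.5% for Tex15HT, 28.3% for Tex15KO 3 and 31.9% for Tex15KO 16. The level rose through all 4 bins of 250 bases in each of the 6 samples, and the rise from the first to the last was 24.2 to 26.3 percentage points in the controls, 23.9 in Tex15KO 3 and 27.8 in Tex15KO 16. The CpG-rich neighbour was defined on all controls pooled, so a left-out control still had a part in that class. In tiles chosen on 3 controls, the last 250 bases were at 29.2% to 31.7% in the left-out control, 29.0% to 29.4% for Tex15KO 3 and 32.0% to 33.0% for Tex15KO 16. There, Tex15KO 16 was above every left-out control and Tex15KO 3 was below each of them. In the first 250 bases of the same tiles, the left-out controls were at 2.56% to 5.77%, Tex15KO 3 at 4.21% to 4.68% and Tex15KO 16 at 4.07% to 4.32%, and both knockout pups were above the left-out control in 3 of the 4 choices, with Tex15WT 9 the exception.

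**Figure D4:**
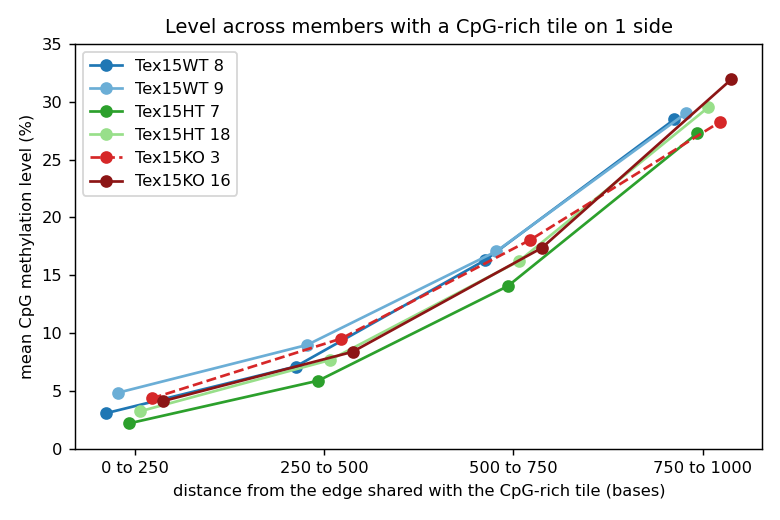
Mean CpG methylation level (vertical axis, %) by distance from the edge shared with the unmethylated CpG-rich tile (horizontal axis, bases), in the 2426 tiles with such a tile on 1 side, with 1 line per sample. All 6 lines climb, from 2.20% to 4.84% in the first 250 bases to 27.3% to 31.9% in the last.

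Surrounding tiles that are not in the set were also chosen in part by the controls' levels, since low tiles with few CpGs were taken out as members and the CpG-rich neighbours of edge tiles were defined as low in controls. Their levels are therefore given with no test. Over all calls in the 11887 tiles with enough calls within 5 kb, the level was 26.3% and 25.5% for Tex15WT, 25.5% and 25.4% for Tex15HT, 30.3% for Tex15KO 3 and 23.9% for Tex15KO 16. The controls lay close together and the 2 knockout pups fell on opposite sides of them. The difference between the knockout and the controls was 1.43 percentage points, -1.74 without Tex15KO 3 and 4.59 without Tex15KO 16. A block of 5 tiles at chr17:39980001-39985000, with over 5000 calls in each sample, gave 18% to 26.8% of these calls, and without it the difference was 1.70. With each surrounding tile weighted equally, Tex15KO 3 was at 55.0% and Tex15KO 16 at 54.5%, beside 52.9% to 54.2% in the 4 controls. For the tiles around edge tiles, so weighted, the knockout pups were at 43.9% and 43.2% and the controls at 42.0% to 42.9%.

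No tile of the set was called changed between genotypes by edgeR's quasi-likelihood test, fitted to methylated and unmethylated counts over all 330110 tiles, at an adjusted p under 0.05. Over all tiles, the same test called 0.00939% lower and 0.000303% higher in Tex15KO than Tex15WT, 0.00485% lower and 0.000909% higher than Tex15HT, and 0.0379% lower and 0.000606% higher than all controls. Between Tex15HT and Tex15WT it called 0.00121% lower and none higher. With shares this low over all tiles, a count of 0 in 5877 tiles says little about the set. The lowest adjusted p among the 5877 in edgeR's test was 0.998 against Tex15WT, 0.506 against Tex15HT and 0.277 against all controls. At an unadjusted p under 0.05, 51 tiles of the set were lower and 139 higher in Tex15KO than in the controls, 0.868% and 2.37%, against 1.73% and 1.4% of all tiles. Against Tex15WT the counts were 82 lower and 72 higher, beside 1.26% and 1.45% of all tiles, and against Tex15HT they were 32 lower and 102 higher, beside 1.27% and 0.939%. Between the control genotypes, 45 were lower and 9 higher in Tex15HT than Tex15WT, beside 0.188% and 0.35% of all tiles. Tiles that start near 0% have little room to fall, and the controls chose them, so these splits by direction are given as a description.

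Without a model, both Tex15KO samples lay above all 4 controls in 347 of the tiles (5.90%) and below them in 263 (4.48%), while over all tiles the shares were 8.24% and 4.32%. The median difference between Tex15KO and the controls was -1.02 percentage points over the set and 2.17 over all tiles. For Tex15KO 16 alone it was 0.449 over the set and 0.719 over all tiles. Between the control genotypes, the median difference of Tex15HT minus Tex15WT was -1.64 over the set and 0.909 over all tiles. The median tile of Tex15KO 3 was at 0%, and its part in the lower median over the set was not tested.

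In 7 tiles both Tex15KO samples lay more than 30 percentage points above every control, which is 0.119% of the set, beside 0.0194% of all 330110 tiles. A tile with high control levels has no room for such a gain, so the 2 shares cannot be read against each other. The clearest was chr16:14584001-14585000, an isolated tile with 5 CpGs, at 21.1% and 6.25% for Tex15WT, 4.76% and 23.8% for Tex15HT, 100% for Tex15KO 3 (32 calls, 95% Wilson interval 89.3% to 100%) and 80% for Tex15KO 16 (25 calls, 60.9% to 91.1%). The tile chr3:3349001-3350000 was at 34.8% and 23.5% for Tex15WT, 0% and 8.70% for Tex15HT, 100% for Tex15KO 3 and 86.7% for Tex15KO 16. In both, the 2 knockout pups were high and the control pups low. The lack of overlap is fixed by how these tiles were picked. Their edgeR adjusted p against all controls was 0.277 and 0.335, and limma on log2 ratios gave 0.0186 and 0.0134. The control levels in these tests also chose the tiles, so the p-values are a description. The same 2 tiles were those of the set that limma called against all controls, both higher. Over all tiles it called 0.00576% higher and 0.271% lower in this comparison. Tiles with high control levels have less room to gain, so limma's shares cannot be read against the set either. Against Tex15HT, limma called chr3:3349001-3350000 and chr10:88412001-88413000 higher, where it called 0.00151% of all tiles higher and 0.0612% lower. Against Tex15WT it called none of the set, beside 0.000303% of all tiles higher and 0.0963% lower, and its lowest adjusted p in the set was 0.0806. The second of the pair, chr10:88412001-88413000, was at 35.3% and 35% for Tex15WT, 0% for both Tex15HT, 100% for Tex15KO 3 with 10 calls and 56.8% for Tex15KO 16.

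The other 5 of the 7 were chr1:47133001-47134000, chr10:120320001-120321000, chr2:108769001-108770000, chr5:32760001-32761000 and chr6:140873001-140874000. In them Tex15KO 3 was at 61.1% to 100% and Tex15KO 16 at 50% to 76.9%, with limma adjusted p against all controls of 0.0719 to 0.475. Of the 7 tiles, 5 were isolated, chr3:3349001-3350000 adjoined a low tile with few CpGs, and chr5:32760001-32761000 adjoined a CpG-rich one. No gene start was placed within 5 kb of any of them, and no mm9 annotation was used to say what they hold.

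Among the 970 tiles with 20 or more calls in every sample, the largest gain to the lower of both Tex15KO samples was at chr12:72831001-72832000, an isolated tile with 8 CpGs. It was at 4.23% and 15.2% for Tex15WT, 20.8% and 21.7% for Tex15HT, 75.6% for Tex15KO 3 and 45.2% for Tex15KO 16. The gain from the pooled controls to the lower knockout was 33.3 points, and its edgeR adjusted p against all controls was 1. The largest fall was at chr7:137421001-137422000, at 16.7% and 23.8% for Tex15WT, 0% and 28.6% for Tex15HT, 0.752% for Tex15KO 3 and 0% for Tex15KO 16. Here Tex15HT 7 was as low as the knockout. The control genotypes differed most at chr8:24470001-24471000, where Tex15WT was at 55.0% and 17.9%, Tex15HT at 4.35% and 3.12%, Tex15KO 3 at 0% and Tex15KO 16 at 32.1%. The tile chr8:42989001-42990000 also separated them: Tex15WT was at 27.6% and 33.3%, Tex15HT at 0% and 2.63%, Tex15KO 3 at 97.1% and Tex15KO 16 at 45.7%. In the opposite direction, chr4:116810001-116811000, which lies 3433 bases from the start of Plk3, a gene for a stress-responsive kinase, was at 4.17% and 6.06% for Tex15WT, 26.7% and 44.8% for Tex15HT, 33.3% for Tex15KO 3 and 10.9% for Tex15KO 16. The edgeR adjusted p of Tex15HT against Tex15WT was 1 for all 3 tiles.

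The deepest tiles gave the most precise levels. The tile chr13:52275001-52276000 had 825 to 1433 calls per sample on 5 CpGs, and was at 3.38% and 4.0% for Tex15WT, 3.26% and 4.84% for Tex15HT, 1.74% for Tex15KO 3 (95% Wilson interval 1.18% to 2.56%) and 4.16% for Tex15KO 16. The tile chr13:44964001-44965000, with 558 to 1147 calls, was at 7.81% and 13.4% for Tex15WT, 6.24% and 14.3% for Tex15HT, 4.48% for Tex15KO 3 and 3.84% for Tex15KO 16. Both knockout pups were below all 4 controls there, and the edgeR adjusted p against all controls was 1. In the tile chr12:79451001-79452000, Tex15KO 16 at 5.58% was below the controls at 8.29% to 16.7%, and Tex15KO 3 at 10.5% was among them. In the tile chr2:73706001-73707000, Tex15KO 3 at 4.0% was below the controls at 6.73% to 16.3% and Tex15KO 16 at 7.36% was among them. Such call numbers are far above the median of 21 to 33 calls per tile, and how many genomic copies they come from was not examined.

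Of the 3 runs of 3 tiles, the first was at chr2:34656001-34659000, beside the start of Rabepk. Its first tile was at 7.14% to 21.7%, and the middle and last tiles were at 0% in every sample except for 2.27% for Tex15HT 7 in the middle one. At chr13:75226001-75229000 the levels were 0% to 12.5%, except for 17.5% and 16.7% for Tex15KO 3. At chr6:47698001-47701000, Tex15WT 9 was at 31.2%, 34.2% and 23.2% while the other 5 samples were at 0% to 14.3%.

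Gene starts inside the tiles were mostly low in both knockout pups. Of the 41 tiles that held a placed start, 30 adjoined a CpG-rich unmethylated tile and 5 were isolated. All 6 samples were under 20% in 28 of them, and the pooled controls were under 5% in 24. Tex15KO 16 was under 20% in 37 and at most at 35%, a value it reached at Cacng3, a calcium channel subunit gene whose tile was at 10.0% to 27.8% in the controls and 0% for Tex15KO 3. Tex15KO 3 was under 20% in 36 and over 50% in 1, that of Vasn, which encodes a TGF-beta binding protein. In the Vasn tile the controls were at 2.78% to 11.6%, Tex15KO 16 at 17.5%, and all 17 calls of Tex15KO 3 were methylated. At Dzip1l, a gene of the primary cilium, both knockout pups, at 38.7% and 34.1%, were above the controls at 7.41% to 31.2%. Both were also above all controls at Vasn and at Gse1. They were below all controls at 2200002J24Rik and at Fam111a, where they were at 0% and 4.76% and the controls at 8.82% to 27.8%. Over the set, both lay above all controls in 5.90% of tiles and below in 4.48%, beside 8.24% and 4.32% of all tiles. Tiles with no methylated call in any sample held the starts of Mlst8, a subunit of both mTOR complexes, Fstl5, Acadsb and Zfp933.

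Of the motifs searched on both strands of the 43 promoters, GGGCGG, the core of the GC box bound by SP factors, was in 25 (58.1%). It was in 35.7% of the 32851 RefSeq promoters of this length and in 70.7% of those placed in unmethylated CpG-rich tiles. The 43 had to match 5 or more listed CpGs to be placed, a limit not set on the 32851. Shares of motifs with a CG, and GC content, are therefore not like for like between the 43 and all promoters. CCGGAAG, an ETS site, was in 3 (6.98%), against 8.86% of all promoters and 20.4% of those in CpG-rich unmethylated tiles. These were promoters of Gm19391 and Gm35150. Overlapping promoters of Gm35150, and of Snhg17, are counted separately in the 43. TATAAA was in 2 (4.65%), against 13.6% and 5.14%. TGACGTCA, the palindromic cAMP response element, was in 4 (9.30%), against 1.79% and 3.75%: the promoters of Zswim7, H2bc11, Tubb2a and Gm40545. The motifs share few letters, and the matches are a description of sequence. The promoters' median GC content was 56.7%, between 52.7% for all promoters and 63.7% for those in unmethylated CpG-rich tiles.

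Placed promoters more often lay beside the tiles than in them. This is partly built in, since placement needed 5 or more listed CpGs within a promoter, which tiles with few CpGs seldom offer. Starts of 801 genes were placed in tiles that adjoined a tile of the set without being in it, and their promoters held a median of 25 CG pairs. In all, 1134 of the 8645 placed genes (13.1%) had a tile of the set within 5 kb. Of a list of 20 genes of germ cells and pluripotency, 9 were placed, none had its start in the set, and 2 had a tile of the set within 5 kb. These were Sycp3, a component of the synaptonemal complex, and Tex101, a surface protein of germ cells. The tile beside Sycp3, chr10:87921001-87922000, was at 0% and 20% for Tex15WT, 11.8% and 0% for Tex15HT, 0% for Tex15KO 3 and 18.9% for Tex15KO 16. The tile beside Tex101, chr7:25456001-25457000, was at 31.2% and 14.3% for Tex15WT, 21.7% and 10.0% for Tex15HT, 0% for Tex15KO 3 and 18.8% for Tex15KO 16. Of 18 genes of the piRNA pathway and of de novo methylation, 6 were placed and 1, Tdrd1, a Tudor protein of the piRNA pathway, had such a tile, chr19:56901001-56902000. It was at 23.5% and 9.09% for Tex15WT, 18.2% and 20.7% for Tex15HT, 52.9% for Tex15KO 3 and 18.4% for Tex15KO 16. The groups overlapped in all 3 tiles. None of 15 genes of somatic testis cells was placed, so nothing can be said of those.

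By chromosome, the set made up 2.17% of the tiles with 3 to 9 CpGs that had enough calls on chromosome 19, the lowest share, and 3.25% on chromosome 3, the highest.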

How the data were processed

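Bisulfite calls of 6 samples, 1 pup each, were used. The authors deposited a table of counts of calls, and of C and T, per cytosine of each strand in mm9; BSMAP, Bismark and methylKit are named without roles, per the submitters' processing notes. Strand pairs were added and summed over 1 kb tiles from position 1. Calls per sample ran from 27495658 to 52935635, and a tile's level is no finer than its 10 or more calls allow. Counts of C and T with a term for each sample were fitted over 330110 tiles with edgeR 4.0.16 in R 4.3.3 (quasi-likelihood test, Benjamini-Hochberg, threshold 0.05); limma 3.58.1 on log2 ratios with 1 added to each count was an alternative. An exact permutation test planned for surrounding tiles is not reported, since control levels chose part of them. Tile means weight tiles equally.

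Tiles were named by rule: the deepest, those called, the largest rises, falls and Tex15HT against Tex15WT differences with 20 or more calls, those next to the threshold, and the longest runs. The members and lists were chosen with earlier results of these data known. Promoter placement, position classes, bins and motifs were chosen after seeing the data. Placement needed 5 or more CpGs matched by spacing and 3 more than any second place. Promoter sequences are RefSeq's, build GRCm38.p6. No chromosome 18 promoter was used. The fit was also run on simulated data, with rises placed only in tiles with 30 or more calls per sample. Only 89 tiles of the set had such depth, so that run is not used as support here.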

Additional observations from a re-analysis of the deposited data

How the results depend on the processing

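The number of tiles was 2782 with a control level under 10%, 8924 under 30% and 89 with 30 calls per sample. Those settings moved the share adjoining a CpG-rich tile to 52.0% and 40.4% for the first 2, and the count of large gains to 0, 16 and 0. The level difference over the set was -1.46 points with 30 calls, -2.86 when Tex15WT 9 was left out of the choice and read instead, and 1.22 to 2.87 without 1 sample. With 30 calls, the difference in surrounding tiles was -3.77. Without 1 sample it ran from -1.74, without Tex15KO 3, to 4.59. limma called 2 tiles against Tex15HT and 2 against all controls, where edgeR called none. Leaving out 1 sample gave 0 to 463 edgeR calls against all controls, 0 to 342 against Tex15WT and 0 to 367 against Tex15HT. The highest counts came without Tex15KO 16, so with Tex15KO 3 alone, and were mostly higher (446, 321 and 354). Without Tex15KO 3 there was 1 against all controls. Large gains numbered 9 to 564 without 1 sample: 12 without Tex15WT 9, 23 without Tex15KO 3 and 564 without Tex15KO 16. In these fits a lone sample is assumed to vary like the other groups. The calls and large gains without 1 sample are given for the set alone, with no share of all tiles beside them. They therefore cannot be read as particular to the set. The cause of these shifts was not tested. Leaving out the deepest surrounding block was chosen after seeing the data. No paired analysis was made because the sample labels name no litter, so pups of 1 litter could not be matched. At 10 to 30 calls per tile and 2 pups, a change of a few points in 1 tile was not detectable.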

Other observations

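The deepest block near a tile of the set, 5 tiles at chr17:39980001-39985000 with 81 to 124 CpGs each, was at 4.29% to 15.9% in the controls. Tex15KO 16 was at 3.17% to 3.60% in all 5, below every control, and Tex15KO 3 was at 2.33% to 9.75%. The block was singled out after its values were seen, and it was not tested. The tile of the set that adjoins it, chr17:39979001-39980000, was at 8.82% and 9.13% in Tex15WT, 3.06% and 8.51% in Tex15HT, 10.1% in Tex15KO 3 and 4.49% in Tex15KO 16.

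Spacing of 6 successive CpGs that recurred at 10 or more places, as copies of a repeat would show, was in 7 tiles of the set (0.119%), and 6 of these were isolated. It was in 0.0928% of all tiles with 3 to 9 CpGs that had enough calls.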
